A study of Mus musculus with 2 samples.

Results

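Amino acid supply was followed through 40 mouse genes in 4 roles. They comprised 19 cytosolic aminoacyl-tRNA synthetases, 9 amino acid transporters, 8 enzymes of asparagine, serine and one-carbon synthesis, and 4 stress regulators. A gene was measured when at least 1 probe was annotated to its symbol alone, which held for 38 of the 40 genes, of 17501 named genes in all. Dars and Mars, the synthetases for aspartate and methionine, had no probe named to them here. The rule lists the genes by name as a functional module, and the list was drawn up with earlier results of these data known.

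The study hybridised 2 two-colour arrays, each with RNA of 1 polarized lymphocyte population and RNA of Th0 cells. The first tested population was Th17-polarized and the second Th1-polarized lymphocytes, and both were set against Th0-polarized lymphocytes. The labels give a TRP-1 mouse as the source of all 3 populations. The Th17 or Th1 RNA carried Cy5 and the Th0 RNA Cy3. Age, number of mice, culture cytokines and culture time are not given in the sources used here. With 1 array per comparison and no dye swap, the values below have no replicate check and carry no test. The arrays are called the Th17 array and the Th1 array, and each sets its polarized cells against Th0 cells.

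Values are log2 ratios as deposited, and their direction is unsettled. Read as titled, a positive value means more RNA in the polarized cells than in Th0 cells, but the table names no numerator. Il17a, the cytokine gene that names the Th17 lineage, lay at −5.37 on the Th17 array, and Il22, another Th17 cytokine gene, at −5.79. The other Th17 genes examined lay on the same side of that array: Ccl20 at −6.48, Il21 at −4.17, Il17f at −2.38 and Il23r at −1.88. On the Th1 array Ifng, the Th1 cytokine gene, lay at −2.02 and Tbx21, the Th1 master regulator gene, at −1.25. Il12rb2, the other Th1 gene examined, lay at −0.59 there. Gzmb, which encodes the cytotoxic protease granzyme B, lay on the other side, at 2.83 on the Th17 array and 0.47 on the Th1 array. "Positive side" below therefore means the side opposite to those Th17 and Th1 genes on the array where each was given. With the sign turned every value changes sides together, and the positive side would mean less RNA in the polarized cells than in Th0 cells. Spread within an array was taken between probes of the same gene, with a pooled SD of 0.50 on the Th17 array and 0.52 on the Th1 array. Probes of a gene can differ from each other, so this is not a repeat measurement of a ratio. A ratio carries no level, so levels are not compared between genes.

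T cells leaving quiescence enlarge and make protein at a high rate, which needs amino acids from outside and a full set of charged tRNAs. Cytosolic synthetases load each tRNA with its amino acid, transporters of the SLC families bring amino acids in, and the serine and one-carbon enzymes make serine, glycine and folate-bound carbon units. When amino acids run short or proteins misfold, kinases phosphorylate the initiation factor eIF2, and translation of the transcription factor ATF4 rises. ATF4 pairs with C/EBP family proteins on C/EBP-ATF response elements and is known to activate many synthetase, transporter and synthesis genes, among them Asns, Psat1, Chac1 and Trib3.

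The core of that element, TGATGNAA, was sought on both strands (TTNCATCA on the other strand) in RefSeq promoter windows of assembly GRCm38.p6, each running from 250 bases before to 50 bases after an annotated start. Of the 38 measured genes, 29 had a window in the table and 10 of these held a match (34.5%). Of all genes with a window 4.51% held one, and of all 32851 windows 3.97% did. Matches were found in 5 of 11 cytosolic synthetase genes, 2 of 6 transporter genes, 1 of 8 synthesis enzyme genes and 2 of 4 stress regulator genes. Of the genes listed for comparison below, the 12 mitochondrial synthetase genes with a window held 0 matches. Further regulators and targets of the eIF2 pathway had matches in 3 of 14 (21.4%), and endoplasmic reticulum stress genes in 1 of 8 (12.5%). Other amino acid transporters had 1 of 16, other amino acid and one-carbon enzymes 1 of 14, and the synthetase complex and valyl synthetase list 0 of 3. The sequences below are shown because they carry the element shared by members of all 4 roles. They read 5′ to 3′ on the gene's strand, with the matching letters in capitals. The first 6 are stretches of 120 bases, and the last 4 are sites of 30 bases where the match touches or follows the start.
Aars (chr8:111033722-111033841, plus strand): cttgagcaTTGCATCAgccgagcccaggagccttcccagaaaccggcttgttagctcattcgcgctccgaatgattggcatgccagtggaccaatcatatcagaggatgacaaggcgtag
Gars (chr6:55037881-55038000, plus strand): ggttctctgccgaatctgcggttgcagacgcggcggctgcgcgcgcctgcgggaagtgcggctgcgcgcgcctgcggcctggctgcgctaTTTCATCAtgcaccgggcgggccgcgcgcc
Tars (chr15:11399659-11399778, minus strand): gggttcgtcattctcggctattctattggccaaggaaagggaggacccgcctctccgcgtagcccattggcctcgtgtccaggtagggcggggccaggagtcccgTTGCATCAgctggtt
Slc7a11 (chr3:50443614-50443733, minus strand): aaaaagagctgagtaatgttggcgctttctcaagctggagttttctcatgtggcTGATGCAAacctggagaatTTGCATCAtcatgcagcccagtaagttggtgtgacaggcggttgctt
Asns (chr6:7693210-7693329, minus strand): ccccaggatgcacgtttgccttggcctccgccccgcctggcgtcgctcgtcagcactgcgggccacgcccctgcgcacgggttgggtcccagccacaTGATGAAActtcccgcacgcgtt
Chac1 (chr2:119350993-119351112, plus strand): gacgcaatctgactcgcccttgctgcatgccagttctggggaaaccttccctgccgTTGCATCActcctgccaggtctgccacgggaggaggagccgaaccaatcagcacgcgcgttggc
Iars (chr13:49682126-49682155, plus strand): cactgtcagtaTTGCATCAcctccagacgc
Yars (chr4:129189895-129189924, plus strand): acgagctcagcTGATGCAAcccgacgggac
Slc1a4 (chr11:20332699-20332728, minus strand): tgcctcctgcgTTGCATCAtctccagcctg
Trib3 (chr2:152344028-152344057, minus strand): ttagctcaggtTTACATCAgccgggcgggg

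The match began 112 bases before the start in Aars, 30 before it in Gars, 15 before it in Tars, 23 before it in Asns and 193 before it in Chac1. Slc7a11 held 2 matches in opposite orientation, which began 66 and 47 bases before its start. In Slc1a4 the match spanned the start, and in Iars, Yars and Trib3 it began 8, 4 and 15 bases into the transcript. Aars held a second match from base 10 of its transcript. In 19 of 32 promoter windows of members the start was an end of the gene, so positions are counted from each window's own annotated start. A match is a description of letters and not of binding.

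**Figure D1:**
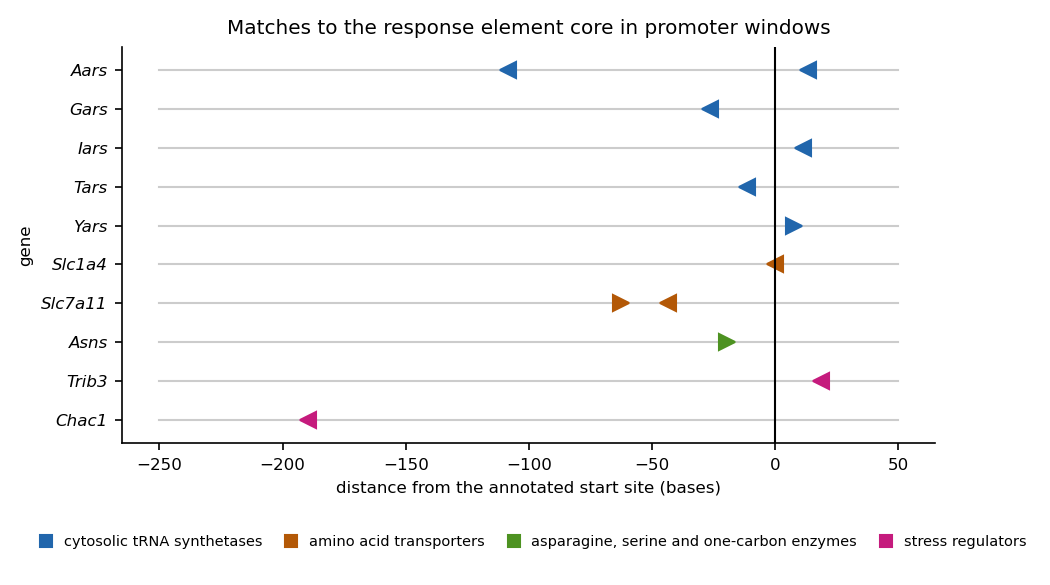
Position of each match to TGATGNAA or TTNCATCA (triangles, pointing right for TGATGNAA and left for its reverse complement) against the annotated start site at 0, in bases, for the 10 genes with a match. Colours mark the roles. Of the 12 matches, 7 lie before the start and 1 spans it, with the match of Chac1 farthest, from 193 to 186 bases before it.

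The module leaned to the positive side on both arrays. Of the 38 genes, 35 lay above 0 on the Th17 array and 37 on the Th1 array, against 46.3% and 42.6% of all named genes. Both arrays had 35 of the 38 above 0, where 29.2% of named genes were. The median was 0.49 on the Th17 array and 0.95 on the Th1 array, against −0.03 and −0.08 over all named genes. At least 2-fold on the positive side were 4 members on the Th17 array (2.90% of named genes) and 15 on the Th1 array (3.27%), and 0 members lay that far on the negative side of either (5.52% and 6.92% of named genes). Asns, Psat1, Slc7a5 and Eprs passed 2-fold on both. Centring on the control genes described below left 8 of the 15 past 2-fold on the Th1 array, where it also placed Cars, Farsa and Slc7a1 below 0. At 1.5-fold, 17 members were on the positive side of the Th17 array (7.88% of named genes) and 27 of the Th1 array (9.49%). In rank among named genes the median member stood at percentile 90.1 on the Th17 array and 96.3 on the Th1 array, a measure that does not depend on where an array is centred. Farsa and Slc7a11 lay on opposite sides of 0 on the arrays, as did 30.6% of named genes.

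**Figure D2:**
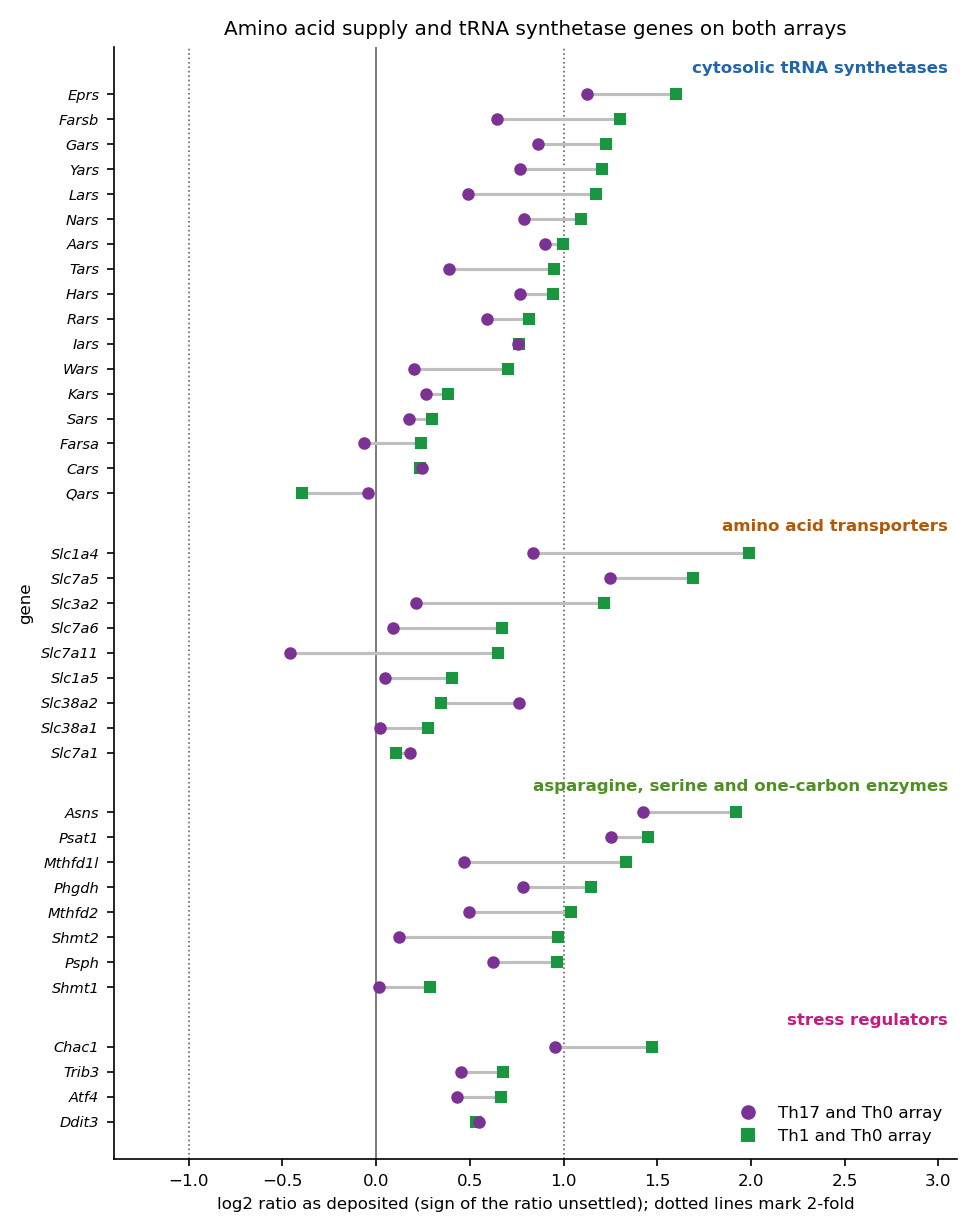
Deposited log2 ratio (horizontal axis) of each of the 38 measured genes (rows, by role), with circles for the Th17 array and squares for the Th1 array, each the mean over a gene's probes. Dotted lines mark 2-fold. Most squares lie right of their circles, with Slc1a4 at 1.99 the farthest right, and Slc7a11 has its markers on opposite sides of 0.

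Among the cytosolic synthetases 15 of 17 lay above 0 on both arrays. Their median was 0.59 on the Th17 array and 0.94 on the Th1 array. Eprs, which encodes the enzyme for both glutamate and proline, was the farthest, at 1.13 (2.18-fold) on the Th17 array and 1.60 (3.03-fold) on the Th1 array. It was the 1 synthetase past 2-fold on the Th17 array. On the Th1 array 6 were past 2-fold: Eprs, Farsb at 1.30, Gars at 1.23, Yars at 1.21, Lars at 1.17 and Nars at 1.09. Each of the 6 rests on 1 probe. Their Th17 array values beside Eprs ran from 0.49 for Lars to 0.86 for Gars. Gars, the glycine enzyme, and Yars, the tyrosine enzyme, hold the element shown above, whereas the windows of Eprs and Farsb do not. Lars and Nars had no window in the table.

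The alanine enzyme gene Aars lay at 0.90 on the Th17 array and at 0.9974 on the Th1 array, just under 2-fold there. The histidine enzyme gene Hars was at 0.77 and 0.94 and the arginine enzyme gene Rars at 0.59 and 0.82 in the same order. Each of these rests on 1 probe. Tars, for threonine, had 2 close probes and lay at 0.39 ± 0.12 (SD over 2 probes) on the Th17 array and at 0.95 ± 0.02 on the Th1 array. Wars, for tryptophan, a gene that interferon gamma is known to induce, lay at 0.20 ± 0.16 and 0.70 ± 0.10 over 2 probes. Iars, for isoleucine, averaged 0.76 on both arrays, but its 3 probes ranged from 0.30 to 1.12 on the Th17 array and from −0.05 to 1.62 on the Th1 array.

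A few synthetases stayed near 0. Qars, for glutamine, was the 1 gene of the whole module below 0 on both arrays, at −0.04 on the Th17 array and −0.40 on the Th1 array. Phenylalanine's enzyme is built from an alpha subunit (Farsa) and a beta subunit (Farsb), and the subunit genes lay apart. Farsa stood at −0.07 on the Th17 array and 0.24 on the Th1 array over 2 probes, and Farsb at 0.64 and 1.30. A Farsa probe held 0.1515 on the Th1 array, a value that also arises when the weaker channel holds 1 unit. The lysine enzyme gene Kars (0.26 and 0.38), the serine enzyme gene Sars (0.18 and 0.30) and the cysteine enzyme gene Cars (0.24 and 0.23) lay within 1 pooled probe SD of 0 on both arrays. The probes of Sars differed in sign on both arrays and those of Cars on the Th1 array.

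Several cytosolic synthetases sit together in a multi-enzyme complex, and its 6 measured enzymes (Eprs, Iars, Kars, Lars, Qars and Rars) overlapped the others. The 6 ranged from −0.04 to 1.13 with a median of 0.54 on the Th17 array, against −0.07 to 0.90 with a median of 0.64 for the 11 others. On the Th1 array their median was 0.79, against 0.95. This grouping was made after the values were seen. Scaffold and linked genes listed beside them were split. Eef1e1, a small protein of the complex, lay at 0.74 on the Th17 array and 1.15 on the Th1 array. Aimp2, a scaffold, was at −0.67 and −0.51, Aimp1, another scaffold, at −0.14 and 0.01, and Vars, the valine enzyme gene, at −0.31 and 0.04.

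Mitochondria use synthetases of their own, mostly from separate genes, and these lay around 0. Of 14 measured, 6 were above 0 on the Th17 array and 7 on the Th1 array. They had a median of −0.01 on the Th17 array and 0.01 on the Th1 array, with 0 past 2-fold on either. For 12 cytosolic genes a mitochondrial partner for the same amino acid was measured (Eprs was paired with the proline enzyme gene Pars2, and Farsa and Farsb share Fars2). The cytosolic gene lay above its partner in 11 of 12 pairs on the Th17 array and in 12 of 12 on the Th1 array. The median gap was 0.53 and 0.73. It was widest for Eprs over Pars2, at 1.55 on the Th17 array and 1.82 on the Th1 array. Gaps were small for Iars over Iars2 on the Th1 array, where Iars2 itself lay at 0.74, and for Yars over Yars2 on both arrays (0.31 and 0.24), as Yars2 lay at 0.45 and 0.96. They were also small for Wars on the Th17 array (0.15) and Farsa on the Th1 array (0.16), where these cytosolic genes lay at 0.20 and 0.24. Lars2 lay at −0.01 and 0.61 and Tars2 at −0.58 and −0.06. The Lars2 value on the Th17 array matches a weaker channel of at most 5 units. A gap within an array does not depend on its centring, and it turns sign with the ratio.

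**Figure D3:**
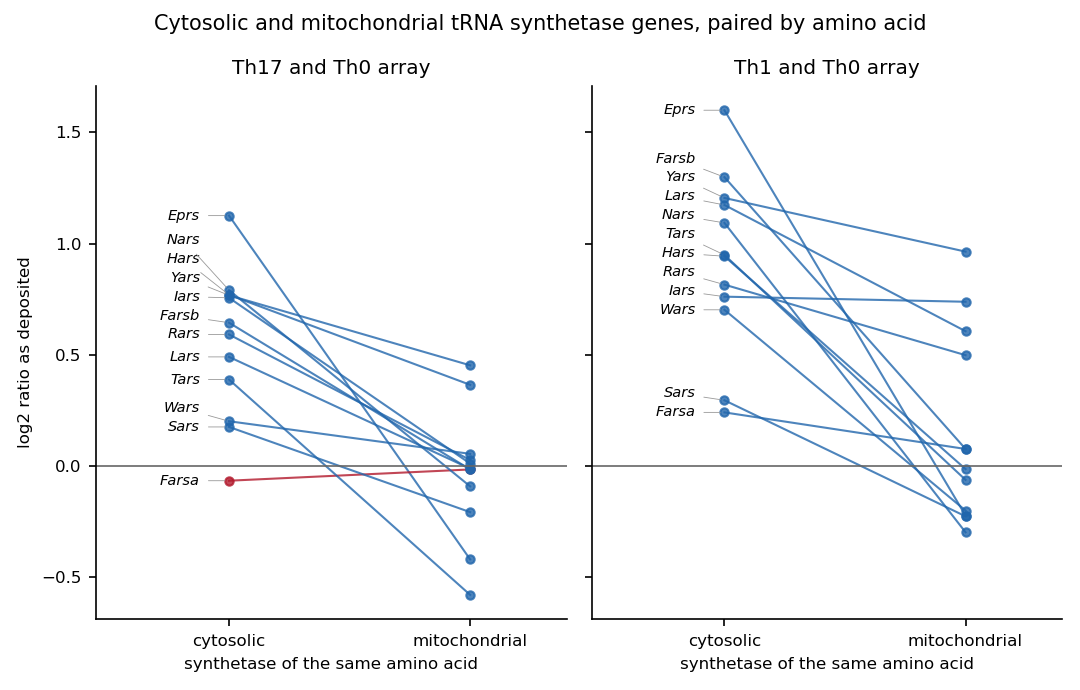
Deposited log2 ratio (vertical axis) of 12 cytosolic synthetase genes and of the mitochondrial synthetase gene for the same amino acid, joined by a line, on the Th17 array (left) and the Th1 array (right). Lines fall from left to right in 11 of 12 pairs on the Th17 array, with Farsa the exception in red, and in 12 of 12 on the Th1 array.

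Of the 9 transporters, 8 lay above 0 on the Th17 array and 9 on the Th1 array, with medians of 0.18 and 0.65. Slc7a5 encodes LAT1, the light chain that imports large neutral amino acids such as leucine, and was the 1 transporter past 2-fold on both arrays, at 1.25 (2.38-fold) on the Th17 array and 1.69 (3.22-fold) on the Th1 array. Slc3a2 encodes CD98, the heavy chain that LAT1 and related light chains need at the surface. Its 2 probes lay at 0.19 and 0.24 on the Th17 array and at 1.02 and 1.41 on the Th1 array, for means of 0.21 and 1.21. Heavy chain and light chain were thus both past 2-fold on the Th1 array, and the light chain alone was on the Th17 array.

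Slc7a11 encodes xCT, which imports cystine in exchange for glutamate. Its 3 probes lay from −0.66 to −0.32 on the Th17 array and from 0.30 to 0.86 on the Th1 array, so the probe values of the arrays did not overlap. The means were −0.46 and 0.65, and no other gene of the module lay below −0.1 on the Th17 array. Slc7a6, a light chain for basic and neutral amino acids, lay at 0.09 and 0.67. Slc1a4, a carrier of alanine, serine and cysteine, was the highest member on the Th1 array at 1.99 (3.97-fold), against 0.84 on the Th17 array. Its relative Slc1a5, the glutamine carrier ASCT2, lay at 0.05 and 0.40 over 3 probes.

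Slc38a1 and Slc38a2 encode sodium-coupled carriers of small neutral amino acids such as glutamine. Slc38a1 lay at 0.02 on the Th17 array and 0.28 on the Th1 array. Slc38a2 was among the few genes that were higher on the Th17 array, at 0.76 against 0.35, but its 2 probes were 0.31 and 1.22 there and −0.25 and 0.94 on the Th1 array. Slc7a1, the arginine and lysine carrier CAT1, lay at 0.18 and 0.11. Among 20 other amino acid transporter genes measured, the Th17 array had 1 past 2-fold on the positive side and 2 on the negative side, and the Th1 array 0 and 2, with medians of 0.25 and −0.01. Slc7a3, a cationic carrier, lay at 1.20 and 0.82, and Slc1a2, a glutamate carrier, at −1.65 and −0.24. Slc7a2, another cationic carrier, averaged −0.76 and 0.34, with 4 probes from −1.93 to 1.45 on the Th17 array. Slc1a1, a glutamate carrier, averaged −0.08 and −1.17, with probes at −2.07 and −0.27 on the Th1 array. On that array 1 probe of Slc1a1 and 1 of Slc7a2 match a weaker channel of at most 5 units. On the Th17 array the median of the listed transporters was thus no higher than that of the other carriers.

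Synthesis enzymes lay farthest as a role on the Th1 array. All 8 were above 0 on both arrays, with medians of 0.56 on the Th17 array and 1.09 on the Th1 array. Past 2-fold were 2 on the Th17 array and 5 on the Th1 array. Asns, asparagine synthetase, led: its 2 probes lay at 1.21 and 1.64 on the Th17 array and at 1.71 and 2.13 on the Th1 array, means of 1.42 (2.68-fold) and 1.92 (3.79-fold). Its promoter stretch is among those printed above.

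Serine is made from a glycolytic intermediate by Phgdh, Psat1 and Psph in turn. Phgdh lay at 0.78 on the Th17 array and 1.14 on the Th1 array, Psat1 at 1.25 ± 0.43 and 1.45 ± 0.27 (SD over 2 probes), and Psph at 0.62 and 0.96. All 3 steps therefore lay on the positive side, with the middle step highest. Serine then gives its carbon to folate through Shmt1 in the cytosol or Shmt2 in mitochondria, and Mthfd2 and Mthfd1l carry the mitochondrial branch on to formate. The cytosolic gene Shmt1 lay at 0.01 ± 0.12 and 0.29 ± 0.09 over 2 probes. The mitochondrial gene Shmt2 lay at 0.12 ± 0.15 and 0.97 ± 0.27, Mthfd2 at 0.49 and 1.04, and Mthfd1l at 0.47 and 1.33. The mitochondrial branch was thus past or near 2-fold on the Th1 array and under 1.5-fold on the Th17 array.

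Of 16 other amino acid and one-carbon enzyme genes measured, 1 lay at least 2-fold positive on the Th17 array and 3 on the Th1 array, with 0 at least 2-fold negative and medians of 0.20 and 0.30. Cth, which makes cysteine from cystathionine, lay at 1.75 and 1.37 over 2 probes. The proline synthesis gene Aldh18a1 was at 0.57 and 1.12. Oat, the ornithine aminotransferase gene, was at −0.05 and 1.17, and Mthfd1, the cytosolic folate enzyme gene, at −0.07 and 0.87. A Cth probe on the Th17 array matches a weaker channel of at most 5 units.

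All 4 stress regulators lay on the positive side of both arrays, with medians of 0.50 on the Th17 array and 0.67 on the Th1 array. Chac1, which degrades glutathione and is an ATF4 target, was at 0.95 (1.94-fold) on the Th17 array and 1.47 (2.78-fold) on the Th1 array, and it alone of the 4 passed 2-fold, on the Th1 array. Trib3, a pseudokinase that feeds back on ATF4, lay at 0.45 and 0.68. Ddit3, the gene of the factor CHOP, lay at 0.55 and 0.53. Atf4 itself averaged 0.43 and 0.66, with 3 probes from −0.05 to 0.85 and from 0.14 to 1.06. ATF4 is set largely at translation, so its transcript is a limited readout.

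Wider stress genes did not all follow. Of 16 further regulators and targets of the eIF2 pathway, 1 lay at least 2-fold positive and 1 negative on the Th17 array (medians: −0.12 there, 0.22 on the Th1 array), and 3 positive and 0 negative on the Th1 array. Eif2ak3, which encodes PERK, the eIF2 kinase of the endoplasmic reticulum, lay at 2.43 (5.38-fold) and 1.48 (2.78-fold), farther on the Th17 array than any member. Eif2ak4, which encodes GCN2, the kinase that senses uncharged tRNA, lay at 0.31 and 1.20. Cebpb, a partner factor of ATF4, was at −1.11 and 0.84, and the stress gene Nupr1 at −0.32 and 1.32. Of 8 endoplasmic reticulum stress genes, 1 was at least 2-fold positive on the Th17 array and 4 on the Th1 array. Among them the chaperone gene Hspa5 lay at 1.19 and 1.62, Hsp90b1 at 0.80 and 1.72, and Pdia4 at 0.70 and 1.14, while the factor gene Xbp1 lay at −0.75 and 1.15. Both Xbp1 values are among those that also arise when the weaker channel holds at most 5 units.

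**Figure D4:**
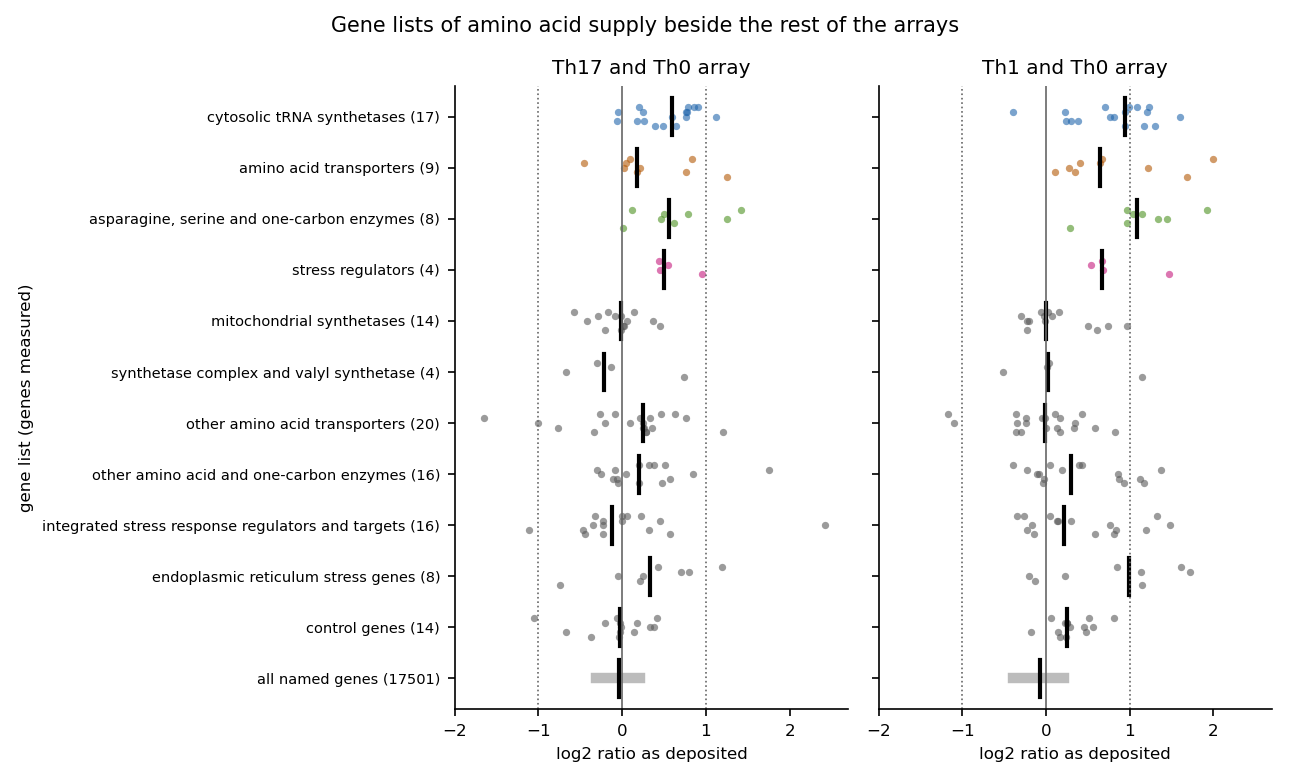
Deposited log2 ratio (horizontal axis) of every measured gene (points) of each list (rows, number of genes in brackets) on the Th17 array (left) and the Th1 array (right), with the list's median as a black bar. For all named genes the grey band spans the middle 50% and no points are drawn. The medians of the 4 roles lie between 0.18 and 0.59 on the Th17 array and between 0.65 and 1.09 on the Th1 array, while the mitochondrial synthetases lie at −0.01 and 0.01.

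Members with a match to the element had a median of 0.80 on the Th17 array (range −0.46 to 1.42) and 1.10 on the Th1 array (0.65 to 1.99). The 19 members with a window but no match had medians of 0.43 (−0.07 to 1.25) and 0.67 (−0.40 to 1.60). The ranges overlapped on both arrays. For the 9 members without a window, whose promoters were not searched, the medians were 0.49 and 0.82, and 3 of them passed 2-fold on the Th1 array. Slc7a11, with its pair of matches, was the lowest member of all on the Th17 array, and 5 of the 10 members with a match passed 2-fold on the Th1 array, against 7 of the 19 without, Psat1, Slc3a2 and Phgdh among them.

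The arrays were then compared by taking the Th17 array value minus the Th1 array value. This assumes that both arrays carried the same Th0 RNA and that both ratios were taken in the same direction, which the labels do not say. For 33 of 38 members the difference was below 0, against 46.1% of named genes, and its median was −0.35, against 0.04. At least 2-fold apart were 3 members, all on the negative side (3.61% of named genes, with 4.53% as far on the positive side) and all transporters: Slc1a4 at −1.15, Slc7a11 at −1.11 and Slc3a2 at −1.001. At 1.5-fold there were 7 on the negative side (9.33% of named genes). Mthfd1l at −0.87 and Shmt2 at −0.85 lay just inside 2-fold. The 5 members above 0 were Slc38a2 at 0.42, Qars at 0.35, Slc7a1 at 0.07, Ddit3 at 0.02 and Cars at 0.01. Medians of the difference were −0.30 for synthetases, −0.44 for transporters, −0.43 for synthesis enzymes and −0.23 for stress regulators.

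The control genes moved with this difference. Of 14 widely expressed genes, 13 lay below 0 in it, and their array medians were −0.02 on the Th17 array and 0.25 on the Th1 array. Centred on those medians, 16 of the 38 members lay above 0 in the difference and 0 were 2-fold apart, and 11 that were negative turned positive, 6 of them synthetases (Aars, Hars, Iars, Kars, Rars and Sars). The median difference then became −0.03 for synthetases, −0.16 for transporters, −0.15 for synthesis enzymes and 0.05 for stress regulators. Centring on the most repeated value turned Cars and Qars negative instead, so 8 of 17 synthetases changed sign under at least 1 of the 3 centrings run. Slc1a4, Slc7a11 and Slc3a2 were negative under each, but this outcome was fixed in advance. They were picked for lying at least 2-fold below 0, and the only centring that raised the difference subtracted −0.28 from it.

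**Figure D5:**
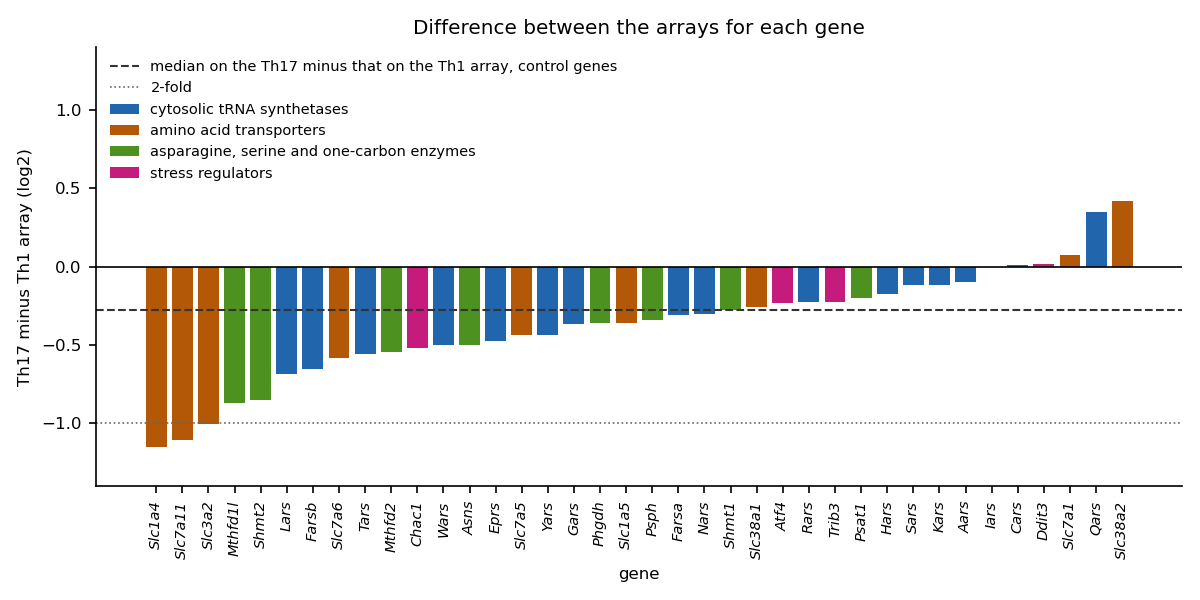
Difference between the arrays (vertical axis, log2, Th17 array value minus Th1 array value) for each measured gene, sorted and coloured by role. The dotted line marks 2-fold and the dashed line, at −0.28, the same difference between the medians of 14 control genes. The 3 leftmost bars, all transporters, reach 2-fold, and 5 genes lie above 0.

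Markers of myeloid cells moved with the module on the Th1 array and in the difference between the arrays. Of 15 measured, 6 were at least 2-fold positive on the Th17 array and 13 on the Th1 array, against 2.90% and 3.27% of named genes. Their median was 0.56 on the Th17 array (range −2.04 to 2.14) and 1.80 on the Th1 array (range 0.03 to 2.98). In the difference, with a median of −1.43, 12 of the 15 lay below 0 (46.1% of named genes) and 8 were at least 2-fold negative (3.61%). Of 10 T cell markers, 5 were at least 2-fold negative on the Th17 array (median −0.71) and 3 on the Th1 array (median −0.61). Of named genes 5.52% and 6.92% lay that far on the negative side. Their part in the results above was not tested. In RNA of whole cultures, fewer cells of a type and less RNA per cell cannot be told apart, and a ratio does not show whether a marker is present at all.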

How the data were processed

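RNA of Th17-polarized and of Th1-polarized lymphocytes was hybridised with Th0 RNA on 1 array each, from 500 ng of total RNA per the labels' protocols. The deposited table holds 1 value per probe and array for 36547 probes, taken to be log2 ratios processed by the authors. That unit was read from the values: the most repeated value was −0.4263 on the Th17 array (162 probes) and −0.8485 on the Th1 array (110 probes), and other repeated values lie from it by log2 of small whole-number ratios. Medians over probes were −0.05 and −0.11. Centring and direction remain unknown, and scanner, background correction and normalisation are not given in the sources used here. Over probes the arrays correlated at r = 0.53.

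Probes were named from the platform annotation: 26926 had 1 gene, 203 several and 9418 were unnamed here. Gene numbers of 26774 one-gene probes matched RefSeq's GRCm38.p6 gene table, and 0 symbols changed. Probes of a gene were averaged on the log2 scale (Python 3.11.15, numpy 2.4.6, pandas 2.3.3, matplotlib 3.10.9), giving 17501 genes. The 38 members had 60 probes: 21 members had 1 probe and 17 had several. Slc7a5, Slc1a4, Phgdh, Mthfd2, Mthfd1l and Chac1 are among those with 1 probe. The probe SD was pooled over 5871 genes with 2 to 19 probes, which leaves out 15 genes with 20 or more. A gene was called when its log2 value was at least 1 in size (2-fold). With 1 array per comparison no p-value was computed, and the number of arrays limits the precision. Probe averaging with the 2-fold call, and the search for weaker channels, were tried on simulated data with less spread between probes than here. The other steps were not tried in that way. Promoter sequences are RefSeq's (GRCm38.p6), whose build the array files do not name. Members and lists were chosen with earlier results of these data known. All measured members are named, with up to 4 genes of each comparison list by largest absolute value, and the Th17, Th1 and effector genes that show the side of the ratio. Pars2 and Fars2 are named outside that rule, as partners in the pairs, after their values were seen.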

Additional observations from a re-analysis of the deposited data

Results flagged for a closer look

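Some genes and lists lay on opposite sides of 0 on the 2 arrays, a difference between the Th17 and Th1 comparisons that was not tested, since each rests on 1 array. Among the members, Slc7a11 differed by −1.11 (Th17 array value minus Th1 array value) and kept opposite sides under every centring run, while Farsa differed by −0.31 and did not keep them. Centred on the most repeated value, Slc7a11 lay only at −0.03 on the Th17 array. Among the genes listed beside them the difference was −0.62 for Lars2, −0.35 for Vars, −0.15 for Aimp1, −1.10 for Slc7a2, −1.21 for Oat, −0.94 for Mthfd1, −1.95 for Cebpb, −1.65 for Nupr1 and −1.90 for Xbp1. Centring was varied for the members and not for these genes. Some lay close to 0 on an array, such as Lars2 at −0.01 on the Th17 array and Aimp1 at 0.01 on the Th1 array. For the lineage genes Il17a and Tbx21 it was −5.67 and 2.12. Medians on opposite sides differed by −0.018 for mitochondrial synthetases, −0.25 for the synthetase complex and valyl synthetase, 0.26 for other amino acid transporters and −0.34 for the further regulators and targets of the eIF2 pathway. Of all named genes, 30.6% lay on opposite sides.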

How the results depend on the processing

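Each role's median and each member's value was recomputed with 3 other centrings, 2 other summaries of a gene's probes and without probes whose ratio matches a weaker channel of at most 5 units. On both arrays all 4 medians stayed positive in each. For the centrings this was fixed in advance. On the Th17 array each centring subtracted a negative value, so values could only rise. On the Th1 array the largest value subtracted was 0.25, under the lowest role median of 0.65. Centring on the most repeated value moved the Th1 array medians by more than 1 probe SD, to 1.79 for synthetases, 1.497 for transporters, 1.94 for synthesis enzymes and 1.52 for stress regulators. Members at least 2-fold apart then numbered 17 on the Th17 array, 36 on the Th1 array and 8 in the difference. A centring shifts every named gene on an array by the same amount. The shares of named genes past 2-fold after centring are not given here, so these counts cannot be set against the shares above. A 1.5-fold threshold gave 17, 27 and 7. Centring on control genes left 8 on the Th1 array and 0 in the difference. No paired analysis was possible because each comparison has 1 array, and for the same reason no array could be left out. The files give no intensities, so signal over background limits these ratios to an unknown degree.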
